A study of Rattus norvegicus with 9 samples.

Results

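Rat heart muscle cells given extra Yap1 were compared directly with rat heart muscle cells in which Yap1 was knocked down. The comparison takes 6 of the 9 RNA-seq libraries of the study, 3 with an adenovirus carrying Yap1 WT and 3 with an adenovirus carrying a Yap1 shRNA, and covers 13105 genes with enough reads to test of 18629 in the table. The cells were primary cardiomyocytes from Sprague-Dawley rats 1 to 2 days old. Plating took 18 to 20 h in 10% FBS, a 14 h step followed in which FBS was 1% and glucose 1 g/L, and for the last 48 h glucose was raised to 33 mM and insulin added at 100 nM. That high glucose and insulin treatment was shared by both groups and by the 3 GFP adenovirus libraries, whose levels are given only as a reference. No group received a control hairpin, so what carrying a hairpin does and what lower Yap1 does cannot be told apart. The labels do not give the species of the Yap1 insert, the virus dose or whether replicates came from separate preparations, and p-values then measure only the spread between these libraries, which may be technical.

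Yap1 is a transcriptional coactivator that carries the output of the Hippo pathway. When the Hippo kinases Mst1/2 (Stk4 and Stk3) and Lats1/2 are active, Yap1 is phosphorylated and kept out of the nucleus. When they are inactive, it enters the nucleus and binds TEAD transcription factors, which in the young heart are known for promoting cardiomyocyte proliferation and growth.

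Levels are reads of a gene per 1000000 assigned reads after TMM scaling (CPM), and a log2 fold change is Yap1 WT over Yap1 shRNA, so that a positive value means more transcript with Yap1 WT. A gene is said to differ when its adjusted p in edgeR's quasi-likelihood test with Benjamini-Hochberg adjustment was under 0.05. The Yap1 WT libraries held 11497104, 10960051 and 11057647 assigned reads and the Yap1 shRNA libraries 6357403, 6103221 and 6355406, so depth differs with the group. With every library thinned to the same depth, 7633 genes were called, against 8058 at full depth.

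Yap1 itself was measured at 568.7, 830.7 and 634 CPM in the 3 Yap1 WT libraries and at 97.2, 97.6 and 96.9 CPM in the 3 Yap1 shRNA libraries. The groups were far apart, the shRNA libraries were nearly equal, and the second Yap1 WT library carried the most Yap1. The log2 fold change was 2.80 (SE 0.13, adjusted p = 5.63e-08), a 6.97-fold difference, and the GFP libraries lay between the groups at 195.5 CPM on average. In the deposited TPM values, which divide by an effective transcript length estimated for each library, Yap1 was at 335, 533 and 376 with Yap1 WT and at 32, 31.7 and 30.2 with Yap1 shRNA, a 13.2-fold difference. The effective length implied for Yap1 in the Yap1 WT libraries was 0.51 of that in the shRNA libraries, relative to the median gene.

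Sirt1, the NAD-dependent deacetylase named in the title of the study, went the other way. It was at 27, 35.2 and 29 CPM with Yap1 WT and at 92.8, 86.3 and 92.3 CPM with Yap1 shRNA. The groups did not overlap, and the log2 fold change was -1.57 (SE 0.10, adjusted p = 2.75e-07). The GFP libraries were below both groups, at 20.2 CPM on average. The authors' deposited table gives log2 fold changes of 2.79 for Yap1 and -1.58 for Sirt1. Among 15 sirtuin and NAD genes tested, 6 were higher with Yap1 WT and 3 with Yap1 shRNA. Besides Sirt1, the latter were the nucleolar sirtuin Sirt7 (-0.80) and Nampt (-0.49), the rate-limiting enzyme of NAD salvage, while the NAD-consuming enzyme Cd38 was higher with Yap1 WT (0.62).

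**Figure D1:**
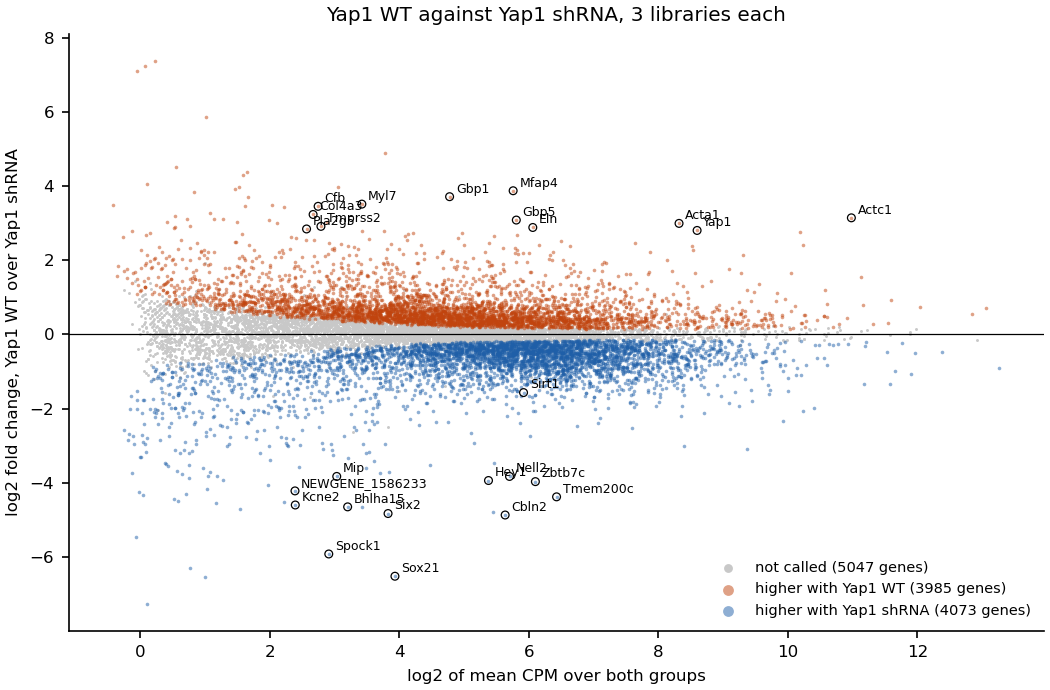
Each point is a gene, with its log2 fold change (Yap1 WT over Yap1 shRNA) against the log2 of its mean CPM, coloured where the adjusted p is under 0.05. Circled and named are Yap1, Sirt1 and the genes with the largest folds among those that averaged at least 5 CPM, from Sox21 at -6.52 to Mfap4 at 3.87.

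Most of the transcriptome differed between the groups. Of 13105 genes, 8058 (61.5%) were called, 3985 higher with Yap1 WT (30.4%) and 4073 higher with Yap1 shRNA (31.1%). The split moved with the scaling, to 5359 and 3250 with upper quartile scaling and to 5034 and 3439 with library size alone. At least 2-fold differences were found in 1802 genes (13.8%), 798 higher with Yap1 WT (6.09%) and 1004 higher with Yap1 shRNA (7.66%), and at least 4-fold differences in 156 (1.19%) and 200 (1.53%). The median log2 fold change over all genes was 0.038, with quartiles at -0.42 and 0.43, and these values are the background for every gene group below. In 8886 genes (67.8%) the libraries of the groups did not overlap, which is the background for each statement on overlap below. For the genes named for their largest folds, lack of overlap was a condition of the choice. The authors' deposited table calls 6513 of the same genes, of which 6509 were called here too, all in the same direction.

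**Figure D2:**
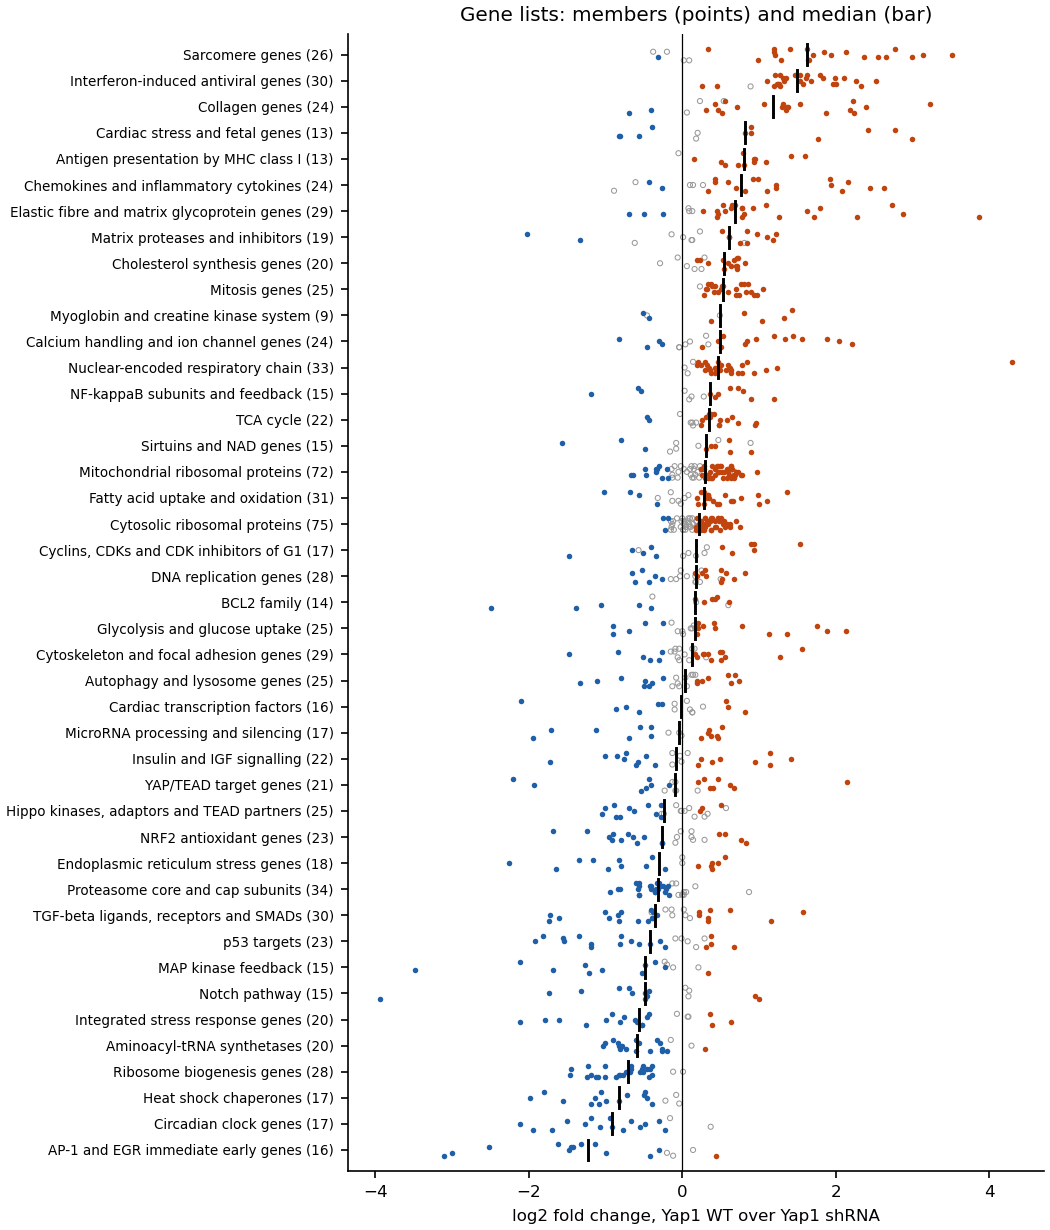
Log2 fold changes (Yap1 WT over Yap1 shRNA) of the tested members of each process gene list (cell type marker lists are not drawn), with the number of members in parentheses, filled where the adjusted p is under 0.05 and open otherwise, and the list median as a bar. Medians run from 1.63 for sarcomere genes to -1.23 for AP-1 and EGR immediate early genes.

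The Hippo kinases Lats1 and Lats2 had more transcript with Yap1 shRNA, while Stk3 had slightly more with Yap1 WT and Stk4 did not pass the test (-0.02). Of 25 Hippo genes tested, 11 were higher with Yap1 shRNA and 3 with Yap1 WT, with a median log2 fold change of -0.24. Lats1, which phosphorylates Yap1, was at 51.5, 48.1 and 48.8 CPM with Yap1 WT and at 110.2, 103.1 and 93.9 CPM with Yap1 shRNA (-1.05, SE 0.075, adjusted p = 7.19e-07). Its paralog Lats2 was at 147.4, 149.7 and 145.4 CPM against 259, 260.3 and 254 CPM (-0.81, SE 0.054). Neither kinase overlapped between the groups. The upstream kinase Map4k4 (-0.87) and the adaptor Frmd6 (-1.01) differed in the same direction. Wwtr1, which encodes the Yap1 paralog TAZ, was also higher with Yap1 shRNA (-0.34, SE 0.074, adjusted p = 0.00205), at 48.6 to 50.6 CPM against 38.2 to 41.2 CPM. The 3 genes higher with Yap1 WT were the kinases Stk3 (0.23) and Taok3 (0.50) and the TEAD factor Tead2 (0.26). Tead1, at 328 to 391 CPM with Yap1 WT and 352.7 to 409.9 CPM with Yap1 shRNA, overlapped between the groups (-0.08, SE 0.079, adjusted p = 0.408).

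Genes known as targets of Yap1 and TEAD did not share a direction. Of 21 tested, 8 were higher with Yap1 WT, 7 were higher with Yap1 shRNA and 6 did not pass the test. Their median was -0.09, and it turned to 0.06 with upper quartile scaling and 0.02 with library size alone. The matricellular genes most often used as readouts of Yap1 differed little against the 6.97-fold difference in Yap1. Ccn2 was at 1839, 1733 and 1752 CPM with Yap1 WT and at 1464, 1572 and 1589 CPM with Yap1 shRNA (0.20, SE 0.065, adjusted p = 0.018), without overlap. Ccn1 was at 445.3, 416.4 and 433.7 CPM against 432.2, 468.3 and 464.3 CPM (-0.08, SE 0.061, adjusted p = 0.3), and the groups overlapped. The muscle ankyrin repeat gene Ankrd1 also overlapped, at 2064, 1711 and 1883 CPM against 1384, 1836 and 1708 CPM (0.20, SE 0.11, adjusted p = 0.121). For all 3 genes the GFP libraries lay above both groups, at 2890 CPM on average for Ccn2, 495.3 for Ccn1 and 5861 for Ankrd1.

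Larger differences within the target list pointed both ways. The secreted matrix protein gene Ccdc80 was at 1222, 862.2 and 1026 CPM with Yap1 WT against 218, 252.4 and 230.3 CPM with Yap1 shRNA (2.15, SE 0.12, adjusted p = 1.41e-07). The growth factor gene Tgfb2 was higher with Yap1 WT as well (0.62, SE 0.08). The DNA damage response gene Gadd45a was at 108, 158.8 and 143.2 CPM against 513.1, 496.1 and 552.9 CPM (-1.93, SE 0.12, adjusted p = 2.63e-07). Amotl2, an angiomotin that binds Yap1, was also higher with Yap1 shRNA (-0.54, SE 0.058). None of these genes overlapped between the groups.

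**Figure D3:**
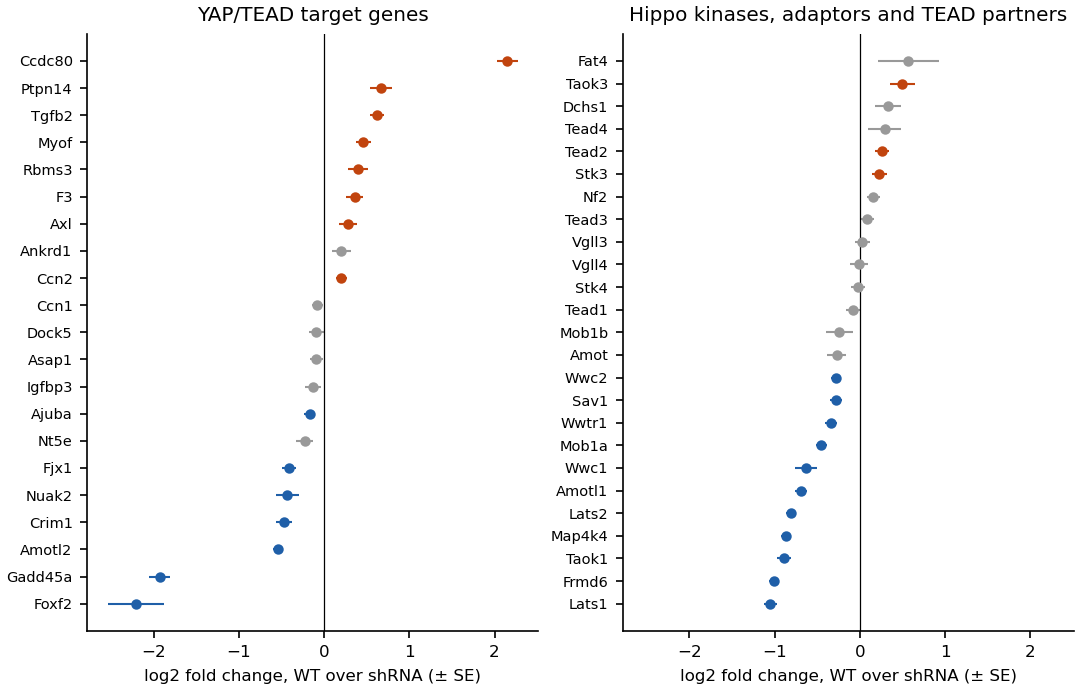
Log2 fold change ± SE (Yap1 WT over Yap1 shRNA) of the YAP/TEAD target genes and the Hippo pathway genes tested, orange or blue where the adjusted p is under 0.05 and grey otherwise. Targets spread from -2.21 to 2.15, and among Hippo genes the called ones lie mostly left of 0.

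The promoter of Ccn2 is shown because it holds the TEAD motif 3 times and yet the gene differed by 0.20 on the log2 scale. The sequence is from RefSeq (rat build GRCr8), the 180 bases that end at the base before the annotated start, with the motif CATTCC or its complement in capitals, 166, 101 and 92 bases before the start.
Ccn2 (chr1:22624615-22624794, minus strand): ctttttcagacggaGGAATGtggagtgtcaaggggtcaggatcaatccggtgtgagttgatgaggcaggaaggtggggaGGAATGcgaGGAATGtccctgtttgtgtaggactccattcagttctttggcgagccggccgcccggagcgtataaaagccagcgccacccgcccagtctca
In windows from 250 bases before to 50 bases after the start, the motif was found on either strand in 6 of 16 promoters of the target list (37.5%), and in 11.1% of the 10376 promoters that matched a tested gene. It was found in 23 of 105 promoters of genes at least 4-fold higher with Yap1 WT (21.9%). Among those at least 4-fold higher with Yap1 shRNA it was in 12 of 148 (8.11%). In lists not chosen for Yap1 it was in 4 of 17 chemokine and cytokine promoters (23.5%), 1 of 10 MHC class I promoters, 0 of 19 interferon promoters and 0 of 14 Notch promoters. A match describes letters in a window and is not a binding site.

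Genes of the contractile apparatus were higher with Yap1 WT, with the highest median of the process lists. Of 26 sarcomere genes tested, 21 were higher with Yap1 WT, 19 of them at least 2-fold, and 1 was higher with Yap1 shRNA, with a median log2 fold change of 1.63 against 0.038 over all genes. Actc1, cardiac alpha-actin, was at 4602, 2493 and 3792 CPM with Yap1 WT and at 328.6, 468.8 and 439.6 CPM with Yap1 shRNA (3.14, SE 0.21, adjusted p = 4.22e-07). Myh7, beta-myosin heavy chain, was at 2586, 1487 and 1999 CPM against 285, 325.9 and 282.5 CPM (2.77, SE 0.17, adjusted p = 2.62e-07). Neither gene overlapped, and the second Yap1 WT library was the lowest of its group for both. The atrial light chains Myl7 (3.51) and Myl4 (2.66), skeletal alpha-actin Acta1 (2.99) and the Z-disc protein gene Myoz2 (2.37) showed the same order of groups. Actc1 and Acta1, and Myh6 and Myh7, are near-identical pairs between which the counting could split reads.

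For both genes the GFP libraries lay above both Yap1 groups, at 16351 CPM on average for Actc1 and at 10598 CPM for Myh7. All 12 cardiomyocyte markers were higher with Yap1 WT (median 1.64), and their summed level was 7556 to 12305 CPM with Yap1 WT against 1972 to 2400 CPM with Yap1 shRNA. Most of these markers, Actc1 and Myh7 among them, are contractile genes, so they are not separate from the sarcomere result. Troponin T (Tnnt2), at 1321 to 1826 CPM and 449.4 to 550.7 CPM, was present in every library. In bulk RNA, fewer cardiomyocytes and less of these transcripts per cardiomyocyte cannot be told apart.

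Calcium handling and natriuretic peptide genes followed the sarcomere. Of 24 calcium handling and ion channel genes, 14 were higher with Yap1 WT and 4 with Yap1 shRNA (median 0.49). Casq2, the calcium-binding protein of the sarcoplasmic reticulum, was at 428.3, 329.7 and 394.1 CPM against 77.6, 87.3 and 83.8 CPM (2.21, SE 0.10, adjusted p = 5.63e-08). Phospholamban (Pln, 1.89), which restrains the sarcoplasmic calcium pump, triadin (Trdn, 1.56) and connexin 43 (Gja1, 0.96) were higher as well. The GFP mean was above both groups for Casq2 (865.2 CPM) and Pln (1497 CPM). It lay between them for Trdn (33.5 CPM) and Gja1 (163.8 CPM). The natriuretic peptide gene Nppa was at 2204, 1773 and 2094 CPM with Yap1 WT and at 314.5, 444.8 and 371.5 CPM with Yap1 shRNA (2.42, SE 0.12, adjusted p = 1.01e-07). Nppb was at 858.5, 767.3 and 905.8 CPM against 205.3, 287.6 and 251.1 CPM (1.77, SE 0.11). Both are markers of cardiomyocyte stress and of the fetal heart, and neither overlapped. Their GFP means, 3079 CPM for Nppa and 994.7 CPM for Nppb, were above both groups. Within the same list of 13 stress and fetal genes, 7 were higher with Yap1 WT and 4 with Yap1 shRNA, the latter being Rcan1 (-0.39), Xirp2 (-0.57), the stress cytokine gene Gdf15 (-0.81) and the small heat shock protein gene Hspb1 (-0.83).

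The cardiac transcription factors did not move with the contractile genes. Of 16 tested, 3 were higher with Yap1 WT and 6 with Yap1 shRNA, with a median of -0.02 that changed sign with several settings. Nkx2-5 was higher with Yap1 WT (0.59, SE 0.076), at 103.3 to 122.3 CPM against 72.2 to 76 CPM. Mef2a (-0.74), Tbx3 (-0.86) and the ventricular factor Irx4 were higher with Yap1 shRNA. Irx4 was at 9.26, 5.43 and 7.49 CPM against 36.6, 31.2 and 27.3 CPM (-2.10, SE 0.18, adjusted p = 2.16e-06), without overlap.

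**Figure D4:**
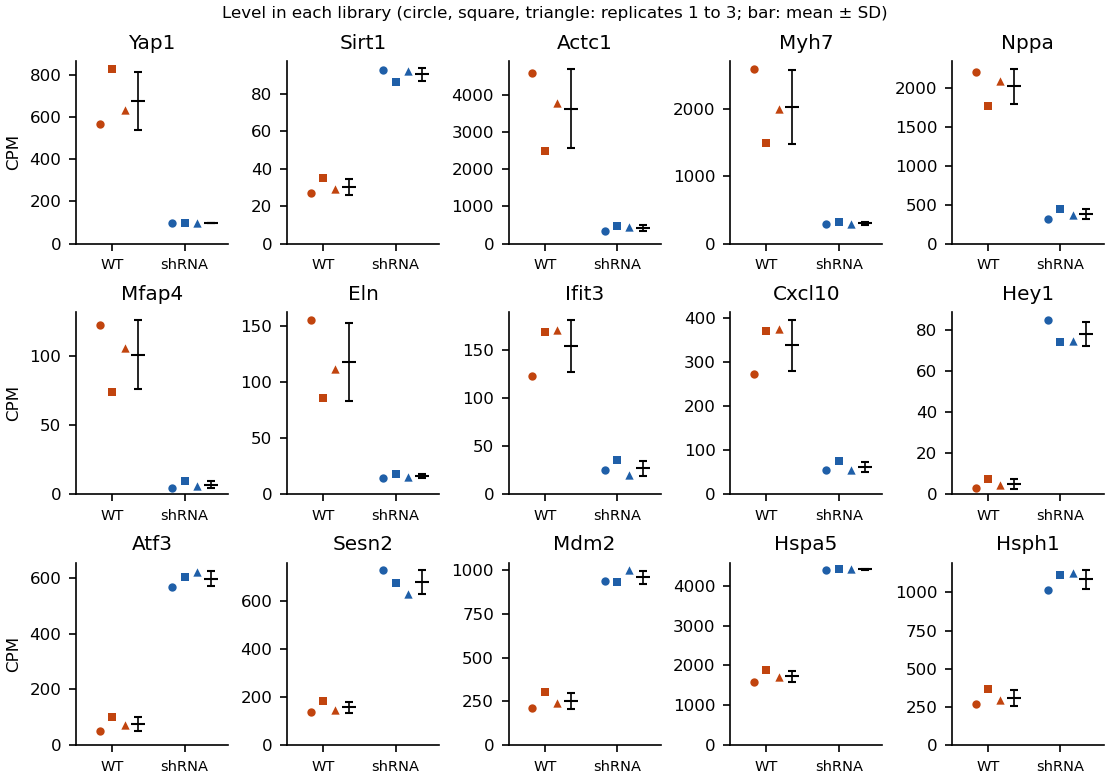
CPM of 15 genes in each library, replicates 1 to 3 as circle, square and triangle, with the group mean ± SD (n = 3), on axes that start at 0. No gene shown overlaps between the groups. The second Yap1 WT library, which has the most Yap1, lies nearest the shRNA group for every gene shown except Yap1, Ifit3 and Cxcl10.

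The 3 Yap1 WT libraries were not alike in this comparison. The library with the most Yap1 (830.7 CPM) was the lowest of its group in 56.2% of the 3985 genes higher with Yap1 WT and the highest in 61% of the 4073 genes higher with Yap1 shRNA. For the sarcomere it was the lowest in 20 of 21 genes higher with Yap1 WT, and for the nuclear-encoded respiratory chain in 28 of 30. Interferon-induced genes had another order, with the first Yap1 WT library, which had the least Yap1 of its group, the lowest in 25 of 29. On the first principal component, which held 72.6% of the variance, the Yap1 WT libraries lay at -35.8, -26 and -32 and the shRNA libraries at 32.7, 29 and 32. With 3 libraries a group, no relation to the Yap1 level was tested.

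Extracellular matrix genes formed the next large group higher with Yap1 WT. Of 24 collagen genes, 19 were higher with Yap1 WT and 2 with Yap1 shRNA (median 1.18), and of 29 elastic fibre and matrix glycoprotein genes 23 and 3 (median 0.69). Mfap4, a microfibril-associated glycoprotein that binds elastin, was at 122.9, 74.2 and 106.4 CPM against 4.88, 9.61 and 6.38 CPM (3.87, SE 0.24, adjusted p = 2.63e-07). Elastin itself (Eln) was at 154.9, 86 and 111.6 CPM against 14.5, 17.8 and 15.5 CPM (2.88, SE 0.21, adjusted p = 7.78e-07). Both are among the genes chosen for their largest folds. For both the GFP libraries were higher still, at 180.5 CPM for Mfap4 and 1651 CPM for Eln. Fibulin 5 (Fbln5, 2.74), which links elastic fibres to cells, fibulin 2 (Fbln2, 2.28) and lysyl oxidase (Lox, 1.26), which crosslinks collagen and elastin, differed in the same direction.

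Fibrillar collagens were among the largest differences in CPM. Col1a1 was at 11973, 9318 and 10514 CPM with Yap1 WT and at 6384, 6823 and 6273 CPM with Yap1 shRNA (0.71, SE 0.095, adjusted p = 6.97e-05). Col3a1 was at 4073, 2610 and 3326 CPM against 1165, 1175 and 1103 CPM (1.54, SE 0.13). The groups did not overlap in either gene. A gene listed as NEWGENE_621351, described in the table as the alpha 2 chain of type I collagen, also differed (0.73, SE 0.094). The separate entry Col1a2 overlapped between the groups (0.54, SE 0.24, adjusted p = 0.0662), and reads may be split between the entries. The basement membrane chain Col4a3 (3.23), the fibril-associated Col14a1 (2.39) and Col15a1 (1.87) had larger folds. The exceptions were the anchoring fibril collagen Col7a1 (-0.41) and Col12a1 (-0.69), and among glycoproteins Loxl2 (-0.50), tenascin C (Tnc, -0.25) and thrombospondin 2 (Thbs2, -0.70). Among 19 matrix proteases and inhibitors, 10 were higher with Yap1 WT and 2 with Yap1 shRNA, with gelatinase A (Mmp2, 1.11) and its inhibitor Timp2 (1.22) both higher with Yap1 WT.

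Markers of fibroblasts are not a separate result, since the list shares Col1a1, Col1a2, Col3a1 and Fbln2 with the matrix genes above. Of 11 tested, 8 were higher with Yap1 WT and 1 with Yap1 shRNA (median 1.09, range -0.45 to 2.66). Their summed level was 13438 to 18028 CPM with Yap1 WT against 8137 to 8897 CPM with Yap1 shRNA, most of it from Col1a1 and Col3a1. Pdgfra, a receptor that marks cardiac fibroblasts, was at 34.3, 23.5 and 30.4 CPM against 5.86, 4.63 and 3.44 CPM (2.66, SE 0.20, adjusted p = 1.02e-06). The part of these cells in the matrix result was not tested. Transcripts of the TGF-beta pathway did not follow the matrix genes, since of 30 tested 15 were higher with Yap1 shRNA and 8 with Yap1 WT (median -0.35). The inhibitory Smad7 was at 115.8, 146.2 and 123.4 CPM against 377.6, 390.9 and 406.5 CPM (-1.61, SE 0.084, adjusted p = 1.12e-07), and the BMP target Id1 was higher with Yap1 WT (1.15).

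Interferon-induced antiviral genes were nearly all higher with Yap1 WT. Type I interferons act through transcription factors that bind a repeated GAAA sequence in the promoters of antiviral genes. Of 30 tested, 29 were higher with Yap1 WT and 27 of them at least 2-fold, with a median of 1.5 and log2 fold changes from 0.26 to 2.52. The member that did not pass the test was the nucleic acid sensor gene Zbp1 (0.89). Ifit3, which acts against viral RNA, was at 122.7, 168.5 and 171.2 CPM with Yap1 WT and at 24.9, 35.5 and 20.5 CPM with Yap1 shRNA (2.52, SE 0.18, adjusted p = 6.4e-07). The ubiquitin-like modifier Isg15 was at 140.6, 201.5 and 195 CPM against 57.5, 69.3 and 58.9 CPM (1.53, SE 0.13, adjusted p = 2.52e-06). The groups did not overlap in either gene. Mx1 (2.26), Cmpk2 (2.33), Gbp2 (2.00) and Oas1a (1.61) shared the direction, though Mx1, Oas1a and the Gbp genes have close paralogs between which reads could be split.

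Both Yap1 groups stood above GFP for the antiviral genes just named. The GFP mean was 1.15 CPM for Ifit3, 1.97 for Isg15, 0.298 for Mx1 and 0.231 for Oas1a, below every library of both groups. Among the genes with the largest folds, the guanylate-binding protein genes Gbp1 (3.71) and Gbp5 (3.08) and complement factor B (Cfb, 3.45) showed the same order.

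Promoters of Ifit3 and Oas1a are shown because they carry the interferon-stimulated response element core, GAAANNGAA or its complement, close to the start. Each sequence is the 180 bases that end at the base before the annotated start (RefSeq, GRCr8), with the motif in capitals. In Ifit3 the motif begins 43 and 24 bases before the start, and in Oas1a it begins 41 and 35 bases before it, as overlapping copies.
Ifit3 (chr1:241527146-241527325, plus strand): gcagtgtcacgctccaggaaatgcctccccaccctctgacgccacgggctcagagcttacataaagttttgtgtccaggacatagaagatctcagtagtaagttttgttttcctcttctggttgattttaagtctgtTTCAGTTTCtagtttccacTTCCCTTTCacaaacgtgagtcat
Oas1a (chr12:41330286-41330465, plus strand): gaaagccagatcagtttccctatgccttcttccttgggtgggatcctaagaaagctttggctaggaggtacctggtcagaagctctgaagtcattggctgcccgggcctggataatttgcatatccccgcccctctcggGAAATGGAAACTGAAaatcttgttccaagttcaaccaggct
The motif was found in 13 of 19 promoters of the interferon list that matched (68.4%) and in 7 of 10 of the MHC class I list (70%), against 736 of 10376 promoters of all tested genes that matched (7.09%). It was found in 18 of 105 promoters of genes at least 4-fold higher with Yap1 WT (17.1%). Among those at least 4-fold higher with Yap1 shRNA it was in 13 of 148 (8.78%). In other lists it was in 2 of 17 chemokine and cytokine promoters (11.8%), 3 of 16 of the YAP/TEAD target list (18.8%) and 0 of 14 of the Notch list.

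Antigen presentation and chemokine genes were higher with Yap1 WT too. Of 13 MHC class I presentation genes, 12 were higher with Yap1 WT and none with Yap1 shRNA (median 0.80). Among them were the immunoproteasome gene Psmb9 (1.6), the proteasome activator genes Psme1 (1.09) and Psme2 (0.94) and the peptide loading factor Tapbp (0.95). The GFP mean was above both group means for Psme1 (173.4 CPM) and below both for Psmb9, Psme2 and Tapbp. Of 24 chemokines and inflammatory cytokines, 17 were higher with Yap1 WT and 2 with Yap1 shRNA (median 0.76). Cxcl10, a T cell attractant, was at 271.8, 369.2 and 373.6 CPM against 55.2, 75.2 and 55.8 CPM (2.45, SE 0.14, adjusted p = 2.21e-07), without overlap and with 2.45 CPM in GFP. Ccl20 (1.93), Cx3cl1 (1.22) and Cxcl11 (2.63) were also higher. Of 15 NF-kappaB genes, 8 were higher with Yap1 WT, among them the subunit Nfkb2 (0.79), and 3 with Yap1 shRNA, among them the subunit Rel (-1.19).

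Macrophage markers were mostly higher with Yap1 WT as well. Of 9 tested, 6 were higher with Yap1 WT and none with Yap1 shRNA, and their summed level was 129.4 to 131.4 CPM against 46.7 to 64 CPM. Lysozyme (Lyz2, 1.87) and Adgre1 (1.22), which encodes F4/80, were higher, while Csf1r (-0.09, adjusted p = 0.685) and Mrc1 (0.18, adjusted p = 0.545) overlapped. The complement genes C1qa, C1qb and C1qc had 13, 8 and 4 reads in all Yap1 WT libraries together and 3, 0 and 0 with Yap1 shRNA, too few to test. Cd68 (0.68, adjusted p = 0.0165) lost its call without Yap1 WT replicate 3, without Yap1 shRNA replicate 1 and without Yap1 shRNA replicate 3. The third Yap1 WT library was the lowest of its group in 4 of the 6 markers, but in 0 of 29 interferon-induced genes. The part of macrophages in the immune result was not tested.

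Energy metabolism genes were mostly higher with Yap1 WT, with smaller medians than the sarcomere, collagen and interferon lists. Of 33 nuclear-encoded respiratory chain genes, 30 were higher with Yap1 WT and none with Yap1 shRNA (median 0.47, range 0.03 to 4.3). Another, Atp5pb, had 188 reads in all with Yap1 WT and 0 with Yap1 shRNA, but was below the count filter and not tested. Cox6a2, the muscle form of a cytochrome oxidase subunit, was at 464.7, 346.3 and 414 CPM against 175, 199.6 and 200.8 CPM (1.09, SE 0.10, adjusted p = 4.51e-06), without overlap. Ndufa4 (0.73), Cox7b (1.23) and the ATP synthase subunit gene Atp5po (0.84) shared the direction. Of 22 TCA cycle genes, 15 were higher with Yap1 WT and 2 with Yap1 shRNA (median 0.35), including Idh2 (0.96) and Mdh1 (0.95). Of 31 genes of fatty acid uptake and oxidation, 20 and 4 were (median 0.28). The fatty acid transporter Cd36 was at 40.5, 30.4 and 38.8 CPM against 13.5, 14.6 and 14.2 CPM (1.37, SE 0.13, adjusted p = 4.31e-06). Cpt1b, the muscle enzyme that admits fatty acids to mitochondria, was the other way, at 51.2, 60.2 and 53.2 CPM against 117.4, 109.1 and 108.2 CPM (-1.02, SE 0.076, adjusted p = 9.62e-07). Neither overlapped between the groups. The GFP mean was above both groups for Cox6a2 (1200 CPM), Ndufa4, Cox7b, Atp5po, Idh2, Mdh1 and Cd36 (123.6 CPM). For Cpt1b it lay between them, at 65.8 CPM.

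Glycolysis genes were mixed. Of 25 tested, 12 were higher with Yap1 WT and 5 with Yap1 shRNA (median 0.17). The muscle enolase Eno3 (1.75) and lactate dehydrogenase B (Ldhb, 1.36) were higher with Yap1 WT, and hexokinase 2 (Hk2, -0.90) and Pfkfb3 (-0.90), which makes an activator of phosphofructokinase, were higher with Yap1 shRNA. Of 20 cholesterol synthesis genes, 14 were higher with Yap1 WT and none with Yap1 shRNA (median 0.54), such as Fdps (0.82), squalene epoxidase (Sqle, 0.71), Hmgcs1 (0.73) and Cyp51 (0.70). Their regulator gene Insig1 overlapped between the groups (-0.06, adjusted p = 0.51). For these 4 enzymes too the GFP level was above both groups, from 176.7 CPM for Sqle to 930.8 CPM for Fdps.

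Mitosis genes were higher with Yap1 WT in 24 of 25 cases and with Yap1 shRNA in none (median 0.53). Top2a, which untangles chromosomes, was at 72.3, 46.9 and 58.2 CPM against 29.6, 29.3 and 30.9 CPM (0.98, SE 0.14, adjusted p = 0.000125). The proliferation marker Mki67 was at 92.1, 73.3 and 80.6 CPM against 49.6, 51.7 and 50.4 CPM (0.70, SE 0.089). The groups did not overlap in either gene, and the GFP means of 87.6 CPM for Top2a and 119.6 CPM for Mki67 were above both group means. DNA replication genes were mixed, with 11 of 28 higher with Yap1 WT, such as E2f1 (0.82), and 6 with Yap1 shRNA, such as Fen1 (-0.66). Among 17 G1 regulators, cyclin D1 (Ccnd1) was at 361, 351.9 and 336.7 CPM against 188, 183.1 and 178.9 CPM (0.93, SE 0.058, adjusted p = 2.89e-07). The CDK inhibitor Cdkn1c was higher with Yap1 shRNA (-1.48), and Cdkn2b was higher with Yap1 WT (0.93). Which cells of the culture these cell cycle transcripts came from was not measured.

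Protein synthesis genes split between the ribosome and the machinery that builds it. Of 75 cytosolic ribosomal protein genes, 42 were higher with Yap1 WT and 3 with Yap1 shRNA (median 0.22), such as Rps27 (0.75) and Rpl21 (0.62). Of 28 ribosome biogenesis genes, 26 were higher with Yap1 shRNA and none with Yap1 WT (median -0.71). Ubtf, the factor that organises ribosomal DNA for transcription, was at 94.2, 97 and 93.7 CPM against 225.6, 220.7 and 221.8 CPM (-1.23, SE 0.055, adjusted p = 5.63e-08). Nop58, a core nucleolar protein gene, was at 127.9, 173.9 and 148 CPM against 394.2, 401 and 430.4 CPM (-1.45, SE 0.10). Both were apart in every library. Of 20 aminoacyl-tRNA synthetase genes tested, 17 were higher with Yap1 shRNA and 1 with Yap1 WT (median -0.59), such as Cars (-1.04) and Yars1 (-0.90). The effective transcript length implied by the deposited counts and TPM values moved weakly with the fold change (Spearman's rho -0.12 across the 13105 genes). Of 5 equal groups by this length, the shortest had a median of 0.19 and the longest -0.07. Its part in the ribosomal protein result was not tested.

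With Yap1 shRNA, immediate early transcription factor genes were higher. Of 16 AP-1 and EGR genes tested, 12 were higher with Yap1 shRNA, 9 of them at least 2-fold, and 1 with Yap1 WT, with a median of -1.23. Atf3, a stress-induced factor, was at 50.6, 100.1 and 73.5 CPM with Yap1 WT and at 567.1, 602.3 and 621.9 CPM with Yap1 shRNA (-3.00, SE 0.18, adjusted p = 2.63e-07). Fosl1, an AP-1 subunit, was at 52.2, 64.6 and 55.6 CPM against 323.6, 336.5 and 331.7 CPM (-2.52, SE 0.079, adjusted p = 1.14e-08). The gaps between the groups were several times the range within either. Jun (-1.48), Fos (-1.62), Klf4 (-1.32) and Myc (-1.45) followed, and Junb (0.44) was the exception. Of 15 feedback genes of the MAP kinases, 10 were higher with Yap1 shRNA and 1 with Yap1 WT (median -0.48). Dusp2, a phosphatase that shuts MAP kinases off in the nucleus, was at 6.32, 8.23 and 7.32 CPM against 75.7, 77.6 and 90.2 CPM (-3.48, SE 0.11, adjusted p = 1.14e-08). Dusp5 (-2.12) and Dusp8 (-1.69) shared its direction. The GFP mean was below both group means for Fosl1 (6.91 CPM), Jun (102.4 CPM), Fos (8.45 CPM) and Klf4 (90.9 CPM). The same held for Dusp2 (0.848 CPM), Dusp5 (18.4 CPM) and Dusp8 (32.5 CPM).

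Several stress programmes were higher with Yap1 shRNA. Of 20 integrated stress response genes, 14 were higher with Yap1 shRNA and 3 with Yap1 WT (median -0.56). Sesn2, a stress-induced inhibitor of mTORC1, was at 140, 185.2 and 147.1 CPM against 730, 676.1 and 631.4 CPM (-2.11, SE 0.10, adjusted p = 7.73e-08). Its regulator Atf4 was at 586.2, 723.3 and 642.7 CPM against 1255, 1297 and 1335 CPM (-0.99, SE 0.08), and Trib3 (-1.79) and Ppp1r15a (-1.61) differed likewise. Of 18 endoplasmic reticulum stress genes, 10 were higher with Yap1 shRNA and 6 with Yap1 WT (median -0.31). The chaperone BiP (Hspa5) was at 1595, 1875 and 1707 CPM against 4390, 4427 and 4413 CPM (-1.35, SE 0.075, adjusted p = 1.63e-07). The sensors Ern1 (-1.65) and Atf6 (-1.16) and the cochaperone Dnajb9 (-2.26) were in the same direction. None of Sesn2, Atf4 or Hspa5 overlapped between the groups. The GFP mean was below both group means for Sesn2 (58.7 CPM), Trib3 (34.4 CPM), Ppp1r15a (80.4 CPM) and Hspa5 (1206 CPM). It was also below both for Ern1 (35.5 CPM), Atf6 (126.9 CPM) and Dnajb9 (29.2 CPM).

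Cytosolic chaperones and protein disposal showed the same order. Of 17 heat shock genes, 14 were higher with Yap1 shRNA and none with Yap1 WT (median -0.83). Hsph1, a nucleotide exchange factor for Hsp70, was at 268.7, 370 and 296.5 CPM against 1014, 1114 and 1129 CPM (-1.80, SE 0.11, adjusted p = 2.36e-07). Bag3, which with Hsp70 removes damaged muscle proteins, was at 267.1, 323.2 and 292.1 CPM against 830.8, 903.3 and 861.2 CPM (-1.56, SE 0.077). Hsp90aa1 (-1), Hsp90ab1 (-1.08), Hspa8 (-0.48) and the autophagy receptor gene Sqstm1 (-1.33) were, with Hspa5, among the 6 genes with the largest difference in CPM in favour of Yap1 shRNA. For each of those named the GFP level was below both groups. Of 34 proteasome subunit genes, 24 were higher with Yap1 shRNA and none with Yap1 WT (median -0.32), such as Psmd11 (-0.94). Of 23 NRF2 antioxidant genes, 12 were higher with Yap1 shRNA, such as the glutathione synthesis gene Gclc (-0.92), and 4 with Yap1 WT, such as Gpx1 (0.83).

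The p53 target list was also mostly higher with Yap1 shRNA. Of 23 tested, 14 were higher with Yap1 shRNA and 4 with Yap1 WT (median -0.42). Mdm2, the ubiquitin ligase that degrades p53, was at 212.2, 305.3 and 243.3 CPM against 940.8, 934 and 1002 CPM (-1.92, SE 0.11, adjusted p = 2.21e-07). The cell cycle inhibitor Cdkn1a was at 485.7, 571.6 and 526.5 CPM against 1563, 1524 and 1510 CPM (-1.54, SE 0.072, adjusted p = 6.49e-08). In both genes the groups were apart by more than the whole range of either. Tp53inp1 (-1.82), Btg2 (-1.19) and the cell death gene Bbc3 (-1.35) shared the direction. The GFP mean was below both group means for Cdkn1a (160.4 CPM), Tp53inp1 (44.4 CPM), Btg2 (105.3 CPM) and Bbc3 (16.9 CPM). The BCL2 family was mixed, with 6 of 14 higher with Yap1 WT and 5 with Yap1 shRNA. Those 5 included the pro-death genes Hrk (-2.49) and Bcl2l11 (-1.38) and the pro-survival gene Mcl1 (-1.06), which was at 92.6 to 101.2 CPM against 190 to 212.3 CPM.

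Circadian clock genes were higher with Yap1 shRNA in 15 of 17 cases and with Yap1 WT in none (median -0.91). Arntl, which encodes the activator BMAL1, was at 45.1, 55.7 and 48.7 CPM against 107.4, 100 and 106.5 CPM (-1.07, SE 0.083, adjusted p = 1.25e-06). Nr1d1, which represses Arntl, was at 25.6, 28.2 and 27.5 CPM against 76.2, 75.3 and 78.9 CPM (-1.5, SE 0.074, adjusted p = 8.24e-08). An activator and its repressor were thus both higher with Yap1 shRNA, as were Rora (-1.70) and Ciart (-2.11). The time of day of harvest is not in the labels.

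Notch pathway genes were higher with Yap1 shRNA in 10 of 15 cases and with Yap1 WT in 2 (median -0.48). The receptor gene Notch1 was at 20.9, 21.6 and 18.8 CPM against 81.9, 63.7 and 59.1 CPM (-1.74, SE 0.12, adjusted p = 6.4e-07). Hey1, a transcriptional repressor induced by Notch, was at 3.28, 7.61 and 4.36 CPM against 84.8, 74.5 and 74.8 CPM (-3.94, SE 0.20, adjusted p = 8.34e-08). Another Notch target, Hes1, was at 43, 44.1 and 45.5 CPM against 63.6, 89.9 and 82.3 CPM (-0.83, SE 0.11). None overlapped. Rbpj, the DNA-binding partner of Notch, differed by less (-0.49), and Heyl (0.95) and the glycosyltransferase Lfng (1.00) were higher with Yap1 WT. The GFP mean was below both group means for Notch1 (10.2 CPM), Hey1 (0.0692 CPM) and Rbpj (83.3 CPM). It lay between them for Hes1 (59.6 CPM). The promoter of Hes1 is shown because it carries the RBPJ motif TGGGAA as a close pair, in capitals, 123 and 109 bases before the start (RefSeq, GRCr8, the 180 bases before the start).
Hes1 (chr11:84213046-84213225, minus strand): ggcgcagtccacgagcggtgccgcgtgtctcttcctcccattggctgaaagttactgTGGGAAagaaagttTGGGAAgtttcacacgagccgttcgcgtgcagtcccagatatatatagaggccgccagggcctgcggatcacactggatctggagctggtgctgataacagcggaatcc
This motif was found in 6 of 14 promoters of the Notch list (42.9%) and in 22.8% of all that matched. Its share was higher in 2 lists not chosen for Notch, with 10 of 19 promoters of the interferon list (52.6%) and 5 of 10 of the MHC class I list (50%). Among genes at least 4-fold higher with Yap1 WT or with Yap1 shRNA it was found in 22.9% and 21.6%.

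Leaving aside genes that averaged under 5 CPM, the largest folds were in genes with more transcript with Yap1 shRNA. Sox21, a transcription factor gene known from neural progenitors, was at 0, 0.525 and 0.436 CPM with Yap1 WT and at 33.2, 23.7 and 33.7 CPM with Yap1 shRNA (-6.52, SE 0.35, adjusted p = 1.42e-07). The proteoglycan gene Spock1 was at 0.168, 0.438 and 0.0871 CPM against 14.5, 14.2 and 15.5 CPM (-5.92, SE 0.30). These Yap1 WT levels rest on 11 and 8 reads in all. Both genes reached a mean of 5 CPM only through the shRNA libraries, and groups that do not overlap were a condition of the choice. Cbln2, a synaptic organiser, was at 2.19, 4.9 and 2.79 CPM against 100.1, 84.8 and 103.1 CPM (-4.87, SE 0.19, adjusted p = 3.12e-08). Six2, a kidney progenitor factor, was at 0.842, 1.31 and 0.697 CPM against 27.8, 28 and 26.4 CPM (-4.83, SE 0.19). The others were Hey1 (-3.94), described above, the factor Bhlha15 (-4.65), the potassium channel subunit Kcne2 (-4.60), Tmem200c (-4.38), Zbtb7c (-3.97), Nell2 (-3.83) and the lens channel gene Mip (-3.83). The entry NEWGENE_1586233 was at 14, 13.9 and 1.96 CPM with Yap1 shRNA, so its log2 fold change of -4.22 (SE 0.65) varies within the group. In 11 of these 12 genes the GFP mean was under 1 CPM and below both group means, and for Zbtb7c (12.8 CPM) it lay between them. For some of the 11 the Yap1 WT mean was near 0 too, so its order with GFP is not secure. Kcne2 averaged 0.318 CPM in GFP (SD 0.218) and 0.394 CPM with Yap1 WT (SD 0.124). NEWGENE_1586233 averaged 0.411 CPM (SD 0.115) and 0.508 CPM (SD 0.0923).

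Among the 12 largest folds in the other direction, the GFP mean was above both groups in 7, below both in 4 and between them in 1, Yap1. Those with low GFP levels were Gbp1, Gbp5, Cfb and the serine protease gene Tmprss2, which was at 9.77, 12.5 and 14.2 CPM against 1.14, 2.4 and 1.31 CPM (2.91, SE 0.27) and had 0 reads in GFP. The secreted phospholipase gene Pla2g5 had the opposite position, with 64.3 CPM in GFP, 7.18 to 12.6 CPM with Yap1 WT and 0.651 to 1.89 CPM with Yap1 shRNA (2.84, SE 0.34).

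**Figure D5:**
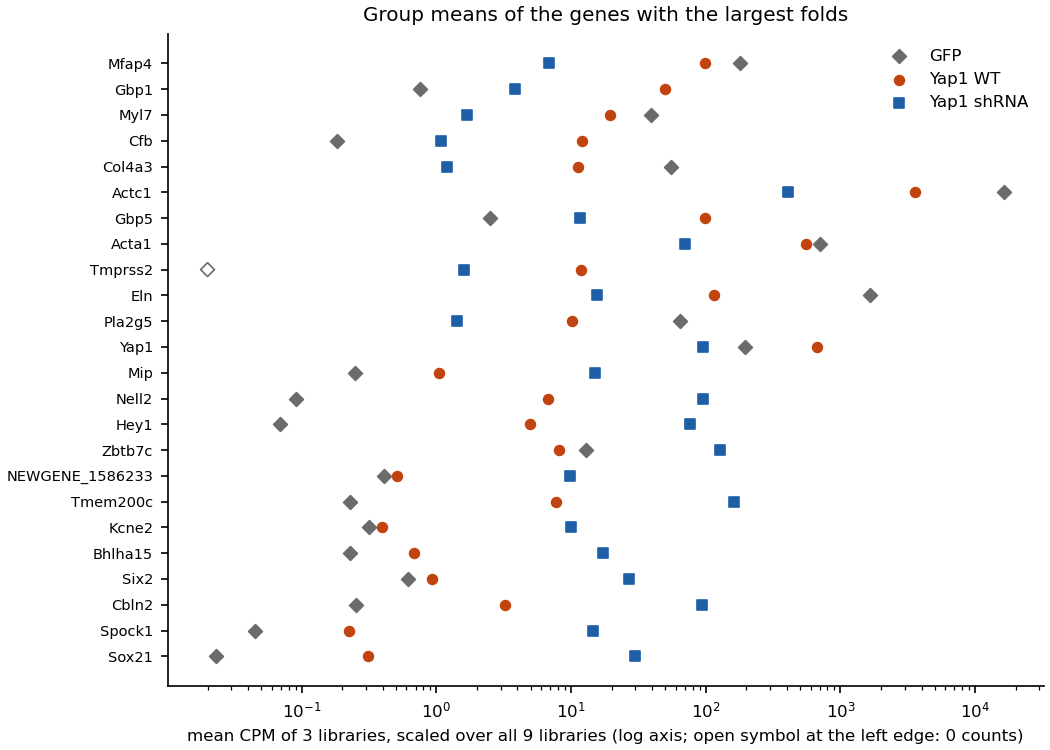
Mean CPM over 3 libraries (log axis) in the GFP, Yap1 WT and Yap1 shRNA groups for the 12 genes with the largest folds in each direction. In 11 of the 12 genes higher with Yap1 shRNA the GFP mean is lowest, and in 7 of the 12 higher with Yap1 WT it is highest. For Kcne2 and NEWGENE_1586233 the GFP and Yap1 WT means, both under 1 CPM, differ by less than their spread.

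Other cell types were checked through their markers. Smooth muscle and pericyte markers were mixed (3 of 9 higher with Yap1 WT and 4 with Yap1 shRNA), as were endothelial markers (2 and 3 of 9). Among the latter, Esam was at 5.84 to 6.82 CPM against 18.1 to 19.3 CPM (-1.6), while Pecam1 was at 1.23 to 2.62 CPM in all 6 libraries. Of 6 neural and glial markers tested, 4 were higher with Yap1 shRNA, including Prph (-2.49) and Elavl4 (-2.33), and Sox10, which defines glia, had too few reads to test. Among 8 epicardial markers, 5 were higher with Yap1 WT and 2 with Yap1 shRNA, with log2 fold changes from -1.09 to 5.85. Their summed level overlapped, at 83.2 to 87.2 CPM with Yap1 WT and 83.3 to 92.5 CPM with Yap1 shRNA. The median of 0.91 turned to -0.45 when only genes with at least 5 CPM in 3 libraries were kept. The mesothelial gene Msln was at 5.64, 3.5 and 5.05 CPM against 0.651, 1.03 and 0.818 CPM (2.49), and Upk3b was at 4.46, 3.5 and 4.01 CPM with Yap1 WT and had 1 read in all with Yap1 shRNA. No lymphocyte or erythroid marker had enough reads to test. The part of these cell types in the results above was not tested.

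The remaining lists were mixed or leaned to Yap1 WT. Insulin and IGF signalling had 22 genes tested, 8 higher with Yap1 WT, such as Igf1 (1.42) and Igf2r (1.14), and 9 with Yap1 shRNA, such as Foxo3 (-1.72) and Irs2 (-0.76). Foxo3, a transcription factor restrained by insulin, was at 14.6, 13.7 and 16.1 CPM against 59.4, 48.7 and 38.1 CPM, without overlap. Of 17 genes of microRNA processing and silencing, 7 were higher in each group, with the Argonaute genes Ago2 (-1.12) and Ago4 (-1.71) higher with Yap1 shRNA. Autophagy and lysosome genes were 8 and 8 of 25. Of 29 cytoskeleton and focal adhesion genes, 12 were higher with Yap1 WT, such as integrin beta 5 (Itgb5, 1.56), and 6 with Yap1 shRNA, such as the tubulins Tubb3 (-1.48) and Tubb6 (-0.84). Of 72 mitochondrial ribosomal protein genes, 40 were higher with Yap1 WT and 11 with Yap1 shRNA (median 0.29). Of 9 genes of myoglobin and the creatine kinase system, 5 and 2 were. Myoglobin itself (Mb) overlapped, at 11.5, 4.99 and 9.58 CPM against 5.21, 6.35 and 7.04 CPM (0.49, SE 0.28, adjusted p = 0.156), with 262.6 CPM in GFP.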

How the data were processed

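Poly(A) RNA of cultured rat cardiomyocytes had been sequenced, and the submitters' processing notes name HISAT2, Bowtie2, RSEM 1.3.1, DESeq2 1.4.5 and the build rn6, without the step each served. Whether the library kit keeps strand is not given in the sources used here. Deposited values were expected counts without normalization and TPM values scaled within each library. A deposited comparison of these groups, per the file headers from DESeq2, holds log2 fold changes, p-values and q-values.

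After rounding of the expected counts, edgeR 4.0.16 under R 4.3.3 fitted a group term to the 6 libraries alone, after filterByExpr (minimum count 10) and TMM scaling. Its quasi-likelihood F test, two-sided, was adjusted by Benjamini-Hochberg across 13105 genes at a threshold of 0.05. Variation between libraries beyond counting noise, which may be technical, had a coefficient of 8.11%, with 6.91 prior degrees of freedom at the median. The code was tested on simulated data in which far fewer genes changed than were called here. SE is the size of the log2 fold change over the square root of F. Libraries of a group differed by more than sampling noise (chi-square per degree of freedom 2.34 to 11.4), so none was merged. GFP means are CPM scaled over all 9 libraries and enter no test.

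Named were Yap1, Sirt1, the 12 largest folds in each direction (called, mean of at least 5 CPM, no overlap, no symbol starting with LOC, RGD or AABR or ending in a numeric suffix after a dot), the 6 largest CPM differences in each direction, up to 4 called members with the lowest p of each list, members against a list's median, and all members of lists of 10 or fewer. Ankrd1, Ccn1, Ccn2, Igfbp3, Ifit3, Isg15, Mx1, Oas1a, Atf3, Myc, Mdm2, Col1a2, Wwtr1, Tead1, Stk4, Atf4, Insig1 and Zbp1 fall outside this rule and were chosen after their values were seen. A few genes that the rule takes in are not reported here. The gene lists and this comparison were chosen with earlier results of these data known. Lists got no test. Alternatives were other scalings, DESeq2 1.42.0, limma 3.58.1 (voom, and trend on log2(TPM + 1) and log2(TPM + 0.1)), other filters, a fold minimum of 1.2, all 9 libraries, a replicate block, thinning to 6103220 reads and each library left out.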

Additional observations from a re-analysis of the deposited data

How the results depend on the processing

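Of the 265 named genes, 245 were called. Under 19 alternatives, 9 of these lost the call in at least 1 and none changed direction. Among genes that were never called, Csf1r (-0.09) turned to 0.05 with upper quartile scaling, 0.02 with library size alone and 0.02 without Yap1 shRNA replicate 2. Ccn1 (-0.08) turned to 0.07 and 0.04, Tead1 (-0.08) to 0.07 and 0.03 and Insig1 (-0.06) to 0.09 and 0.05 with the same 2 scalings. With single libraries left out, Csf1r ranged from -0.21 to 0.02, Insig1 from -0.11 to 0.02, Pdgfrb from -0.02 to 0.16 and Mrc1 from -0.04 to 0.32. Insig1 was 0.02 without Yap1 WT replicate 2, Igfbp3 (-0.13) was 0.01 with upper quartile scaling, Pdgfrb (0.08) was -0.02 without Yap1 WT replicate 1, and Mrc1 (0.18) was -0.04 without Yap1 shRNA replicate 2. These 2 scalings move the median of all genes by 0.146 and 0.111 on the log2 scale.

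Testing against a fold of 1.2 left 2631 genes higher with Yap1 WT (3985 without the minimum) and 3035 higher with Yap1 shRNA, and Ccn2 (0.20) and Wwtr1 (-0.34) lost their calls there. DESeq2 called 3044 and 3756 genes, and leaving out 1 library left 7057 to 7879 genes called. On log2(TPM + 1) fold changes of low genes were smaller, Sox21 at -3.92, and Yap1 was larger, at 3.66. Without Yap1 WT replicate 1, Sox21 was at -5.93, and without Yap1 WT replicate 2, Spock1 was at -6.68. Whether same-numbered libraries were prepared together is not in the labels. Their deviations from the group means correlated at 0.0719, 0.00173 and 0.0237 across genes, and those of differently numbered libraries at -0.0616 to 0.041. Values this small cannot tell how the libraries were prepared. With the replicate block 7975 genes were called and Yap1 was at 2.78. Depth limits low genes most in the shRNA libraries, where 12415 to 12535 genes had at least 10 reads against 13273 to 13331 with Yap1 WT.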
